A study of Arabidopsis thaliana with 21 samples.

Results

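The genes described here are the nuclear genes for the light-harvesting antenna and for the subunits of photosystem I and photosystem II: 6 LHCA, 14 LHCB, 12 PSA and 11 PSB genes of Arabidopsis. They were taken by gene identifier from a table of 21156 genes, and all 43 were found, passed the filter on low values and had values in all 7 feeding groups. Messenger RNA was measured in leaves cut from 35-day-old F1 hybrid plants of Col-0 and Ler and fed a solution through the petiole. The groups were PAP + ATP + LiCl, PAP + LiCl, LiCl, PAP + ATP, ATP, PAP, and the control with buffer only, 3 libraries each. The sample labels give ATP as 1 mM, LiCl as 100 mM and PAP as 100 µM, but the treatment notes give other PAP doses, so the PAP dose is in doubt. All groups, the control included, received the same buffer of PIPES, sodium citrate, KCl and sucrose. PAP is 3'-phosphoadenosine 5'-phosphate, a chloroplast stress signal that lithium helps to keep by inhibiting the phosphatase SAL1. Leaves fed ATP and LiCl but not PAP were not analysed here, the feeding time is not given in the sources used here, and the labels do not say whether the 3 libraries of a group came from separate plants. The p-values therefore measure the spread between these libraries, which may be technical.

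In the thylakoid membrane, antenna proteins bind chlorophyll a and b and pass the energy of absorbed light to the reaction centres. The trimers of the main antenna are built from LHCB1, LHCB2 and LHCB3 proteins, the minor antenna of photosystem II from LHCB4, LHCB5 and LHCB6, and the belt around photosystem I from LHCA proteins. The reaction centre cores are encoded in the plastid genome, whereas the antenna and many peripheral subunits are nuclear genes, known in leaves for strong control by light, sugar, the clock and signals from the chloroplast.

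The results below turn on the LHCB1 genes, whose sequences are nearly alike, and these are shown first because counts of one can hold reads of another. The first 90 coding bases of the 3 LHCB1 genes of chromosome 1 were read from RefSeq TAIR10.1 at chr1:10475803-10475892 (minus strand) for LHCB1.1, chr1:10473157-10473246 (minus strand) for LHCB1.2 and chr1:10478071-10478160 (plus strand) for LHCB1.3. Capitals mark the 9 positions at which the 3 are not all alike. This stretch was chosen because no other 90 coding bases in a row held more such positions.
LHCB1.1: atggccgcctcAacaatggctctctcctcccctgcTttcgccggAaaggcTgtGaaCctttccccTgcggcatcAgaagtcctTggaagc
LHCB1.2: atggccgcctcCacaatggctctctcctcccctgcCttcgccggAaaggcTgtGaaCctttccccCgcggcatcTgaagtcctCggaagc
LHCB1.3: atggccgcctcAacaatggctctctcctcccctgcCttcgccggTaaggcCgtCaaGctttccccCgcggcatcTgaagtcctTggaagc
Over the 804 coding bases, LHCB1.1 shared 95.6% of bases with LHCB1.2 and 96.1% with LHCB1.3, and 47 positions differed among the 3. LHCB1.2 (chr1:10472280-10473502), LHCB1.1 (chr1:10474656-10475969) and LHCB1.3 (chr1:10477885-10479114) lie next to each other with gaps of 1153 and 1915 bases. LHCB1.5 (chr2:14522524-14523568) and LHCB1.4 (chr2:14524607-14525918) form a second cluster with a gap of 1038 bases, and their coding sequences were 91.4% identical. Of all stretches of 50 bases in its transcripts, LHCB1.1 shared 20.5% with another member, LHCB1.2 10.6%, LHCB1.3 17%, LHCB1.4 13.7% and LHCB1.5 17.3%. LHCB2.1 and LHCB2.2 shared 22.7% and 28.2% of theirs. The other 36 members shared none. How reads with several matches were counted is not given in the sources used here, so values of the 7 genes with shared stretches are uncertain in how reads were split among them.

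The 150 bases before the annotated start are shown for 4 LHCB1 genes, because 3 of them rose with LiCl in the test described below and LHCB1.3 did not pass it. They are chr1:10475970-10476119 (minus strand) for LHCB1.1, chr1:10473503-10473652 (minus strand) for LHCB1.2, chr2:14524457-14524606 (plus strand) for LHCB1.4 and chr1:10477735-10477884 (plus strand) for LHCB1.3, from RefSeq TAIR10.1. Capitals mark matches to AAAAATCT, the site of the clock factor CCA1, which LHCB1.2 and LHCB1.3 do not hold here.
LHCB1.1: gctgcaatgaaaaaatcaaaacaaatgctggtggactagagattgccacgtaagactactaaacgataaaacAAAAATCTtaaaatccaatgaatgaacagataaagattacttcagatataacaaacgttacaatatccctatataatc
LHCB1.2: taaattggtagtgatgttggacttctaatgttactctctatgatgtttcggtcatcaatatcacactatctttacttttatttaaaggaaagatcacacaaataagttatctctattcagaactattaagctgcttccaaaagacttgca
LHCB1.4: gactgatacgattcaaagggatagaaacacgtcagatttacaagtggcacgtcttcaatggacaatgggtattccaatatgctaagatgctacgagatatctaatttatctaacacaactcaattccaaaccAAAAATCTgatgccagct
LHCB1.3: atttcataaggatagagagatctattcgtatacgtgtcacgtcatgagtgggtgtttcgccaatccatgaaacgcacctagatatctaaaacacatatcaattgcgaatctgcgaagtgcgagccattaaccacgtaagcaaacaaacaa
In a window of 250 bases before the start, on both strands, AAAAATCT was found in 5 of 43 members (11.6%), namely LHCB1.1, LHCB1.4, LHCA4, PSAN and PSAO, and in 6.69% of 27443 promoters of protein-coding genes. CACGTG, the G-box, was found in 9 of 43 members (20.9%) and in 6.49% of all promoters. GATAAG, the I-box of light-regulated genes, was also found in 9 members (20.9%), against 12.3% of all promoters. AAAATATCT, the evening element, was found in LHCA5 alone among the members (2.33%), against 2.36% of all promoters. A match describes these letters and does not show that a factor binds there.

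The libraries held 19190821 to 27155547 reads assigned to genes, and are numbered by their column in the table, since the column names give the group but not the replicate of the labels. The members took 8.08% of the reads in library 2 (control) and 15.6% in library 13 (PAP + LiCl), with a median of 12.9%. In library 2 all 43 members were at their lowest among the 3 control libraries, and in library 10 all 43 were at their lowest among the 3 LiCl libraries. The summed level of the mesophyll markers RBCS1A, CA1 and RCA was 8549 to 10760.0 CPM in the 5 libraries with the smallest member share (libraries 2, 9, 10, 16 and 18) and 16800.0 to 22470.0 CPM in the 5 with the largest (3, 12, 13, 15 and 20). The 5 guard cell markers summed to 427.8 to 1615 CPM in the first 5 libraries and 2747 to 3260.0 CPM in the others, of which TGG1, a myrosinase, made up 94.7% to 99.0%. Without TGG1 the sums overlapped, at 22.8 to 37.6 CPM and 29.8 to 62.9 CPM. So did those of the phloem markers (590.0 to 1013 CPM and 720.1 to 943.1 CPM) and of the epidermis markers (310.2 to 820.5 CPM and 226.3 to 952.7 CPM). Fewer cells of a type and less RNA per cell cannot be told apart in such libraries. The part of these shifts in the results below was not tested. Plastid-encoded transcripts made up 1.22% of library 4 (ATP), 0.475% of library 20 (PAP + ATP + LiCl) and 0.0274% to 0.259% of the others.

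Levels are given as the mean over 21 libraries in CPM, the reads of a gene scaled to a common library total, per kilobase of exon. Among antenna genes LHCB1.3 (AT1G29930) was the highest member of all, with 12700.0, followed by LHCB1.5 (AT2G34420) with 7291, LHCA4 with 5520.0 and LHCB3 with 4933. The lowest members were also antenna genes: LHCB4.3 with 51.5, LHCA6 with 60.02 and LHCA5 with 145.4. LHCA5 and LHCA6 are known to join photosystem I to the NDH complex and are no regular part of the belt, whereas LHCA1 to LHCA4 ranged from 2686 (LHCA3) to 5520.0 (LHCA4). Photosystem II subunits ranged from 529.3 for PSBY to 6615 for PSBR, and PSBO1, the main form of the protein that stabilises the manganese cluster, had 4019. Photosystem I subunits ranged from 325.4 for PSAD2, a copy of the ferredoxin docking subunit, to 3332 for PSAO.

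Members of the same family differed widely in their spread between libraries. The SD between libraries of a group on the log2 scale had a median of 0.482 over 14 LHCB genes, 0.275 over 6 LHCA genes, 0.284 over 12 photosystem I genes and 0.297 over 11 photosystem II genes, beside 0.383 over 17440 genes tested with values in all groups. LHCB2.3 (0.98), LHCB1.4 (0.94), LHCB4.3 (0.87), LHCB1.1 (0.82) and LHCB1.2 (0.66) had the widest spread, and PSAE2 (0.142), PSAL (0.184) and PSBO1 (0.185) the narrowest. LHCB1.4 ranged from 346.2 CPM in library 9 (PAP) to 3747 CPM in library 20 (PAP + ATP + LiCl), 10.8-fold. LHCB1.3, in the same family, ranged from 10846 to 20414 CPM, 1.88-fold. The LHCB1 family thus held both a narrow and a wide range. The distance between the highest and the lowest group mean had a median of 0.49 on the log2 scale over the 43 members and was largest for LHCB1.1 (1.85).

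**Figure D1:**
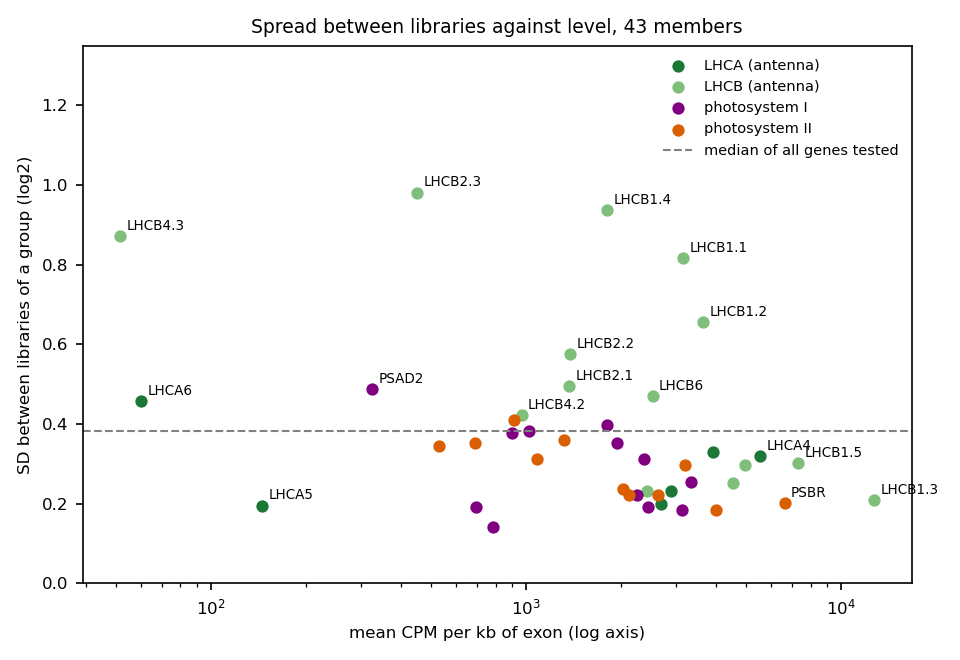
Each point is a member, placed by its mean CPM per kilobase of exon (x axis, log) and the SD between libraries of a group on the log2 scale (y axis); the dashed line is the median SD of all genes tested (0.383). LHCB genes spread from 0.21 (LHCB1.3) to 0.98 (LHCB2.3), and the photosystem II genes stayed at 0.41 or below.

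**Figure D2:**
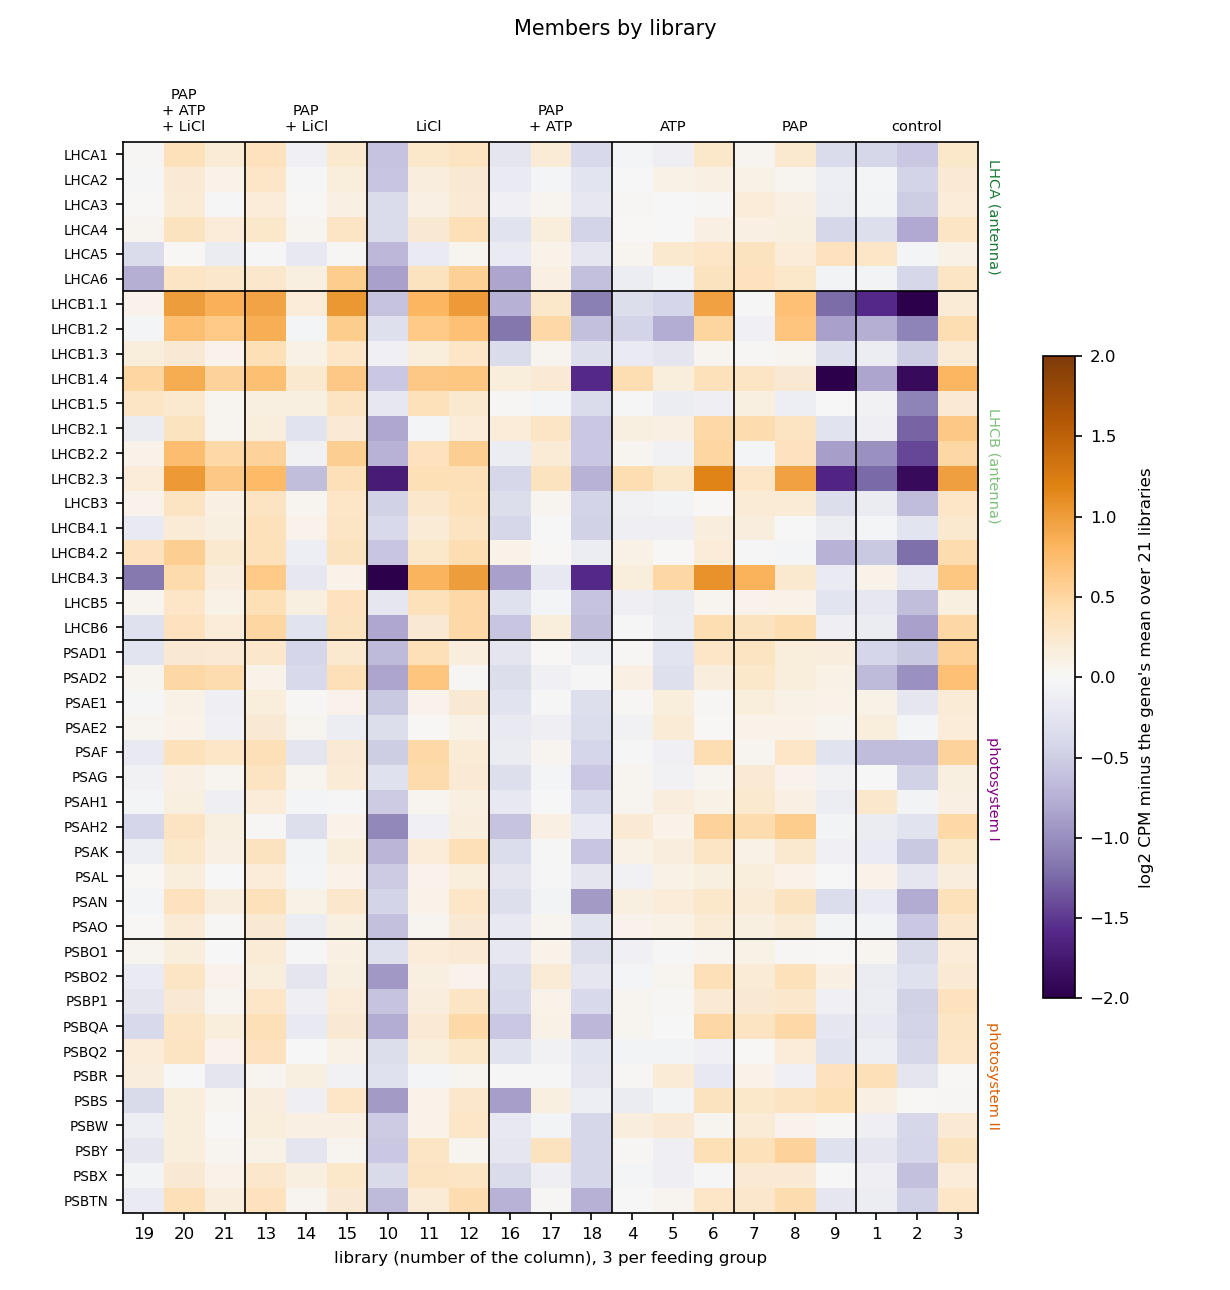
Rows are the 43 members by class, columns the 21 libraries by feeding group, and colour the log2 CPM minus the gene's mean over all libraries. Library 10 (LiCl) and library 2 (control) are low in nearly all rows, and the strongest colours are in LHCB1.1, LHCB1.4, LHCB2.3 and LHCB4.3.

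With limma on log2(CPM + 0.5) and adjusted p-values under 0.05 over all genes, none of the 43 members passed the test of any difference among the 7 groups, in which 35.6% of all genes passed. At an unadjusted p under 0.05 there were 0 members and 8203 of 17440 genes. With array weights, which let libraries differ in their spread, 19 members and 15190 genes passed. The smallest adjusted p-values were 0.122 for LHCA5 and 0.148 for LHCB1.1. PAP + LiCl had the highest group mean for 16 members and PAP + ATP the lowest for 24.

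Each fed group was compared with the control, and these 6 comparisons share the control libraries. No member passed in any of them by limma or by edgeR's quasi-likelihood test. The share of all genes that passed was 19.7% for PAP + ATP + LiCl, 15.7% for PAP + LiCl, 17.6% for LiCl, 2.17% for PAP + ATP, 7.26% for ATP and 0% for PAP. At an unadjusted p under 0.05 there were 3 members for PAP + ATP + LiCl, 2 for PAP + LiCl, 2 for LiCl and 0 for the other 3 groups. Over all genes that number was 6028 of 17621, 5308 of 17602 and 5658 of 17587 for the LiCl-fed groups, 3472 of 17674 for PAP + ATP, 4279 of 17667 for ATP and 847 of 17657 for PAP. With array weights limma called 4 members for PAP + ATP + LiCl, 1 for PAP + LiCl and 1 for LiCl. DESeq2 called 1 member for PAP + ATP + LiCl and 1 for PAP + LiCl. Control library 3 was the highest of the 3 controls in 39 members, and without it 5 members passed by limma for PAP + ATP + LiCl, 3 for PAP + LiCl and 3 for LiCl, beside 3830, 3020 and 3604 of all genes in those comparisons. LHCB1.1, a gene of the main antenna, came closest: it was 3.41-fold the control in PAP + ATP + LiCl leaves (log2 difference 1.77 ± 0.62 SE, limma adjusted p = 0.0529), 3.61-fold in PAP + LiCl leaves (1.85 ± 0.62, adjusted p = 0.0509) and 2.91-fold in LiCl leaves (1.54 ± 0.62, adjusted p = 0.0941). In the groups without LiCl it was 1.52-fold in PAP + ATP leaves (0.61 ± 0.62, limma adjusted p = 0.625), 2.29-fold in ATP leaves (1.19 ± 0.62, adjusted p = 0.25) and 1.94-fold in PAP leaves (0.95 ± 0.62, adjusted p = 0.984).

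The median log2 difference of the members from the control was 0.21 in PAP + ATP + LiCl leaves (34 of 43 above 0), 0.28 in PAP + LiCl leaves (37 of 43), 0.10 in LiCl leaves (33 of 43), -0.09 in PAP + ATP leaves (15 of 43), 0.21 in ATP leaves (39 of 43) and 0.21 in PAP leaves (40 of 43). Over all genes tested the same medians were -0.04, -0.08, -0.03, -0.08, -0.16 and -0.05. Control library 2, the lowest control for every member, moved all 6 values. Without it the member medians were 0.01 in PAP + ATP + LiCl leaves (22 of 43 above 0), 0.08 in PAP + LiCl leaves (29 of 43), -0.09 in LiCl leaves (13 of 43), -0.28 in PAP + ATP leaves (3 of 43), -0.03 in ATP leaves (19 of 43) and 0.01 in PAP leaves (23 of 43). Without library 10, the lowest LiCl library, the member median in LiCl leaves was 0.42, with 39 of 43 above 0. Scaling also bore on 3 of them. Under median-of-ratios scaling the median of all genes moved to 0.04 for ATP and 0.02 for PAP + LiCl and that of the members to 0.43 and 0.39, and the member median for PAP + ATP came to 0.01.

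LiCl was then tested as the mean of its 3 differences, that is PAP + ATP + LiCl against PAP + ATP, PAP + LiCl against PAP, and LiCl against control. Here 5 of 43 members passed (11.6%), beside 41.6% of all genes. LHCB1.1 (AT1G29920), LHCB1.4 (AT2G34430), LHCB1.2 (AT1G29910) and LHCB5 (AT4G10340) rose and LHCA5 (AT1G45474) fell, and all 5 were antenna genes. None of the 23 photosystem subunit genes passed by limma. The median difference was 0.30 over the 20 antenna genes, 0.09 over the 23 subunit genes and 0.01 over all genes tested. Over all 43 members it was 0.19, and was 0.09 without library 2 and 0.30 without library 10. At an unadjusted p under 0.05 there were 7 members, beside 8696 of 17458 genes, which adds LHCB2.2 (0.61 ± 0.26, limma adjusted p = 0.0633) and LHCB4.2 (0.45 ± 0.20, adjusted p = 0.0763), and no subunit gene. EdgeR called 2 members and 7477 of 17440 genes, and DESeq2 4 members and 8175 of 17432 genes. With each library left out in turn limma called between 1 and 7 members, and between 6422 and 7613 genes.

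LHCB1.1 had 3669, 6945 and 6301 CPM in PAP + ATP + LiCl leaves, against 2084, 4204 and 1633 CPM in PAP + ATP leaves. It had 6717, 3963 and 7136 CPM in PAP + LiCl leaves, against 3429, 5736 and 1491 CPM in PAP leaves. It had 2325, 6076 and 7046 CPM in LiCl leaves and 2754, 2580.3 and 6808 CPM in ATP leaves, against 1158, 870.0 and 4013 CPM in control leaves. In every background the LiCl libraries lay higher on the whole, but the groups overlapped in each, with library 10 low among the LiCl libraries and control library 3 high among the controls. The mean LiCl difference was 1.2 ± 0.36 (SE) on the log2 scale, 2.3-fold (limma adjusted p = 0.0125). LHCB1.1 passed under all 32 alternative settings, at 1.06 without library 2 (adjusted p = 0.0272) and 1.37 without library 10 (adjusted p = 0.00556).

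LHCB1.4 had 2876, 3747 and 2937 CPM in PAP + ATP + LiCl leaves, against 2281, 2353 and 684 CPM in PAP + ATP leaves. It had 3374, 2415 and 3150.5 CPM in PAP + LiCl leaves, against 2526, 2395 and 346 CPM in PAP leaves. It had 1391, 3171 and 3202 CPM in LiCl leaves and 2729, 2291 and 2620.2 CPM in ATP leaves, against 1144, 552 and 3568 CPM in control leaves. All 3 PAP + ATP + LiCl libraries were above all 3 PAP + ATP libraries, and the other pairs overlapped. Libraries 18, 9 and 10 stood out as low in their groups. Among the controls, library 2 was lowest and library 3 stood out as high. The mean difference was 1.04 ± 0.41 (SE), 2.06-fold (limma adjusted p = 0.0475). It was lowest, and outside the threshold, without library 9 (0.73, limma adjusted p = 0.0948), library 2 (0.83, adjusted p = 0.0997) or library 18 (0.85, adjusted p = 0.103). Without library 3 it was largest (1.28, limma adjusted p = 0.0116).

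LHCB1.2 had 3932, 6704 and 6204 CPM in PAP + ATP + LiCl leaves, against 1813, 5569 and 2639 CPM in PAP + ATP leaves. It had 7357, 3954 and 6066 CPM in PAP + LiCl leaves, against 3810.2, 6434 and 2223 CPM in PAP leaves. It had 3297, 6242 and 6668 CPM in LiCl leaves and 2963, 2378 and 5771 CPM in ATP leaves, against 2390.2, 1935 and 5384 CPM in control leaves. The groups overlapped in all 3 backgrounds. The mean difference was 0.75 ± 0.29 (SE), 1.68-fold (limma adjusted p = 0.0486). LHCB1.3 and LHCB1.5, the more abundant genes of the family, differed by 0.33 ± 0.16 (adjusted p = 0.104) and 0.32 ± 0.17 (adjusted p = 0.144) and did not pass.

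**Figure D3:**
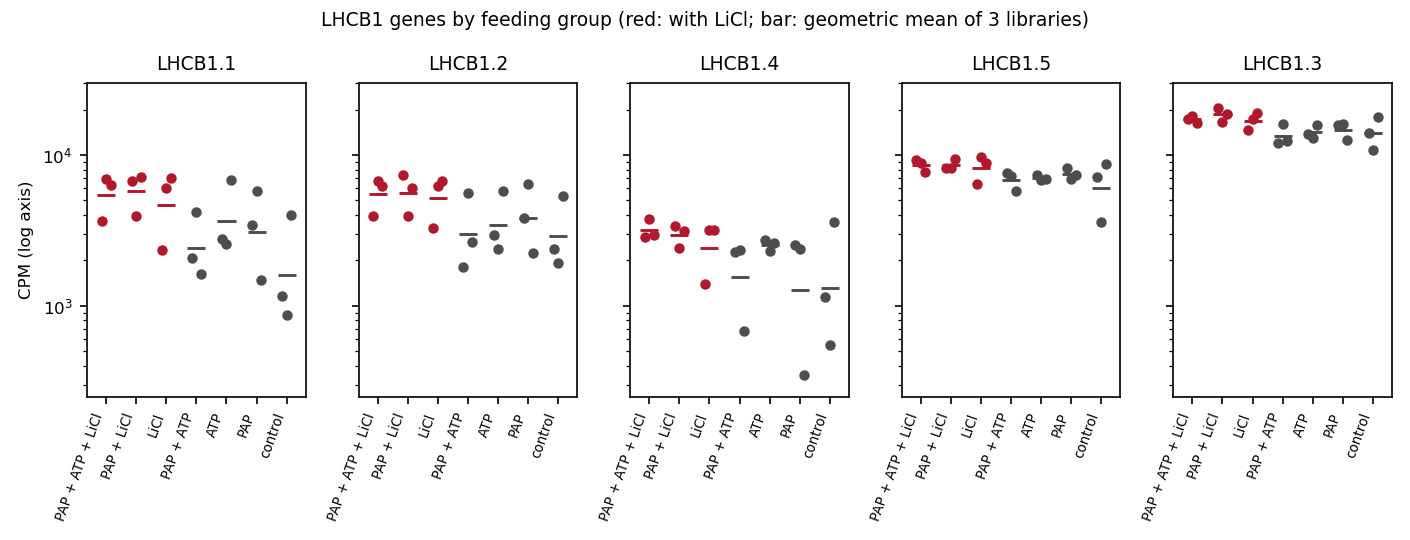
CPM of the 5 LHCB1 genes (y axis, log) in the 3 libraries of each feeding group, red for groups with LiCl and grey for those without; bars are geometric means. LHCB1.1, LHCB1.2 and LHCB1.4 have their lowest values (870.0, 1813 and 346.2 CPM) in LiCl-free libraries, as do LHCB1.5 (3576 CPM) and LHCB1.3 (10846 CPM). LHCB1.3 has the narrower range, up to 20414 CPM.

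LHCB5 (chr4:6408007-6409849) encodes a minor antenna protein of photosystem II and shares no 50-base stretch with another member. LHCB5 had 6362, 7518 and 6608 CPM in PAP + ATP + LiCl leaves, against 5031, 5974 and 4117 CPM in PAP + ATP leaves. It had 8089.5, 6779.6 and 7867 CPM in PAP + LiCl leaves, against 6487, 6565 and 5129 CPM in PAP leaves. It had 5251, 7924 and 8486 CPM in LiCl leaves and 5737, 5574 and 6348 CPM in ATP leaves, against 5323, 3978 and 6722 CPM in control leaves. All 3 PAP + LiCl libraries were above all 3 PAP libraries and all 3 control libraries, and all 3 PAP + ATP + LiCl libraries were above all 3 PAP + ATP libraries; LiCl and control leaves overlapped. The mean difference was 0.41 ± 0.15 (SE), 1.32-fold (limma adjusted p = 0.039).

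LHCA5 (chr1:17179250-17180806) was the only member that fell past the threshold. LHCA5 had 119, 154 and 139 CPM in PAP + ATP + LiCl leaves, against 137, 164 and 132 CPM in PAP + ATP leaves. It had 151, 134 and 155 CPM in PAP + LiCl leaves, against 193, 173 and 195 CPM in PAP leaves. It had 95.8, 137 and 159 CPM in LiCl leaves and 159, 182 and 188 CPM in ATP leaves, against 187, 150.2 and 164 CPM in control leaves. All 3 PAP + LiCl libraries were below all 3 PAP libraries, and the other pairs overlapped. It fell by 0.27 on the log2 scale (SE 0.10, limma adjusted p = 0.0476). LHCB1.1 passed in 32 of 32 alternative settings, LHCB5 in 16, LHCB1.2 in 15, LHCB1.4 in 11 and LHCA5 in 9, and none of the 5 changed direction.

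**Figure D4:**
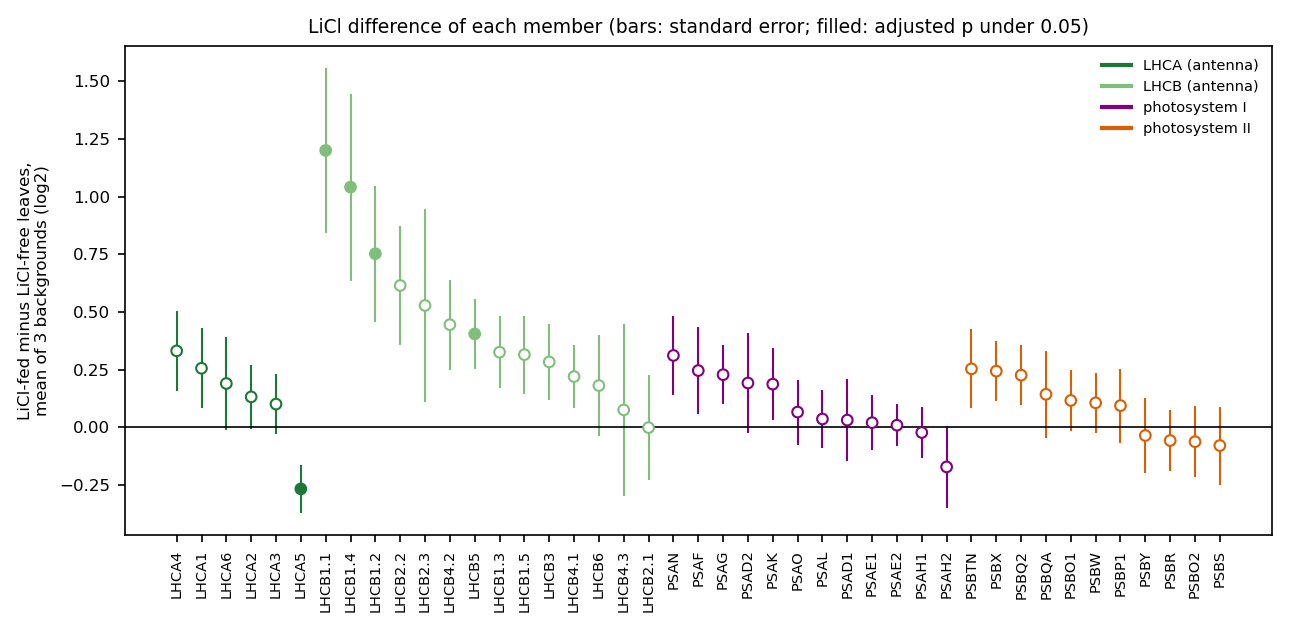
Log2 difference between LiCl-fed and LiCl-free leaves, mean of 3 backgrounds, for each member (points, with standard error) ordered by size within LHCA, LHCB, photosystem I and photosystem II. Filled points have an adjusted p under 0.05 and are LHCB1.1 (1.2), LHCB1.4 (1.04), LHCB1.2 (0.75), LHCB5 (0.41) and LHCA5 (-0.27); no photosystem gene is filled.

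The other members with the smallest p-values of the test among 7 groups, or the largest LiCl difference of their class, did not pass. LHCA4 had 7199.9, 8840.3 and 7881 CPM in PAP + ATP + LiCl leaves, against 5771, 7842 and 5146 CPM in PAP + ATP leaves. It had 8478, 7295 and 8658 CPM in PAP + LiCl leaves, against 7604, 7653 and 5236 CPM in PAP leaves. It had 5396, 8215 and 9083 CPM in LiCl leaves and 7061, 6940 and 7614 CPM in ATP leaves, against 5585, 3989.5 and 8639.9 CPM in control leaves. LHCA4 (AT3G47470), a protein of the photosystem I belt, had a mean LiCl difference of 0.33 ± 0.17 (SE, limma adjusted p = 0.136), with overlap in every background.

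LHCA6 had 39.5, 82.5 and 79.8 CPM in PAP + ATP + LiCl leaves, against 37.5, 72.5 and 43.6 CPM in PAP + ATP leaves. It had 79.9, 72.9 and 100.0 CPM in PAP + LiCl leaves, against 84.9, 81.1 and 64.3 CPM in PAP leaves. It had 36.6, 84.4 and 98.1 CPM in LiCl leaves and 61.1, 64.5 and 84.6 CPM in ATP leaves, against 64.2, 50.2 and 82.2 CPM in control leaves. LHCA6 (AT1G19150) differed by 0.19 ± 0.20 (SE, limma adjusted p = 0.473), and libraries 10, 16, 18 and 19 were the lowest 4.

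PSAN had 1863, 2438 and 2132 CPM in PAP + ATP + LiCl leaves, against 1536, 1847 and 1019 CPM in PAP + ATP leaves. It had 2468, 2058 and 2289.8 CPM in PAP + LiCl leaves, against 2192, 2421 and 1503 CPM in PAP leaves. It had 1402, 2028 and 2350.4 CPM in LiCl leaves and 2107, 2174 and 2310 CPM in ATP leaves, against 1710.2, 1103 and 2472 CPM in control leaves. PSAN (AT5G64040), a lumenal subunit of photosystem I, had the largest LiCl difference among subunit genes, 0.31 ± 0.17 (SE, limma adjusted p = 0.156). Its PAP + ATP + LiCl libraries were all above its PAP + ATP libraries.

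PSAH2 had 516, 863 and 758 CPM in PAP + ATP + LiCl leaves, against 464, 755 and 613 CPM in PAP + ATP leaves. It had 705, 556 and 737 CPM in PAP + LiCl leaves, against 936, 1043 and 670.1 CPM in PAP leaves. It had 338, 657 and 765 CPM in LiCl leaves and 799.8, 734 and 995 CPM in ATP leaves, against 624, 575 and 956 CPM in control leaves. PSAH2 (AT1G52230), a subunit at which antenna trimers dock on photosystem I, had the lowest LiCl difference among subunit genes, -0.17 ± 0.18 (SE, limma adjusted p = 0.462), with library 10 the lowest of all.

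PSBX had 1382, 1679.9 and 1526 CPM in PAP + ATP + LiCl leaves, against 1114, 1342 and 1074 CPM in PAP + ATP leaves. It had 1722, 1580.1 and 1730.5 CPM in PAP + LiCl leaves, against 1659, 1662 and 1431 CPM in PAP leaves. It had 1101, 1791 and 1777 CPM in LiCl leaves and 1389.9, 1331 and 1417 CPM in ATP leaves, against 1336, 932 and 1620.5 CPM in control leaves. PSBX (AT2G06520), a small subunit of photosystem II, differed by 0.24 ± 0.13 (SE, limma adjusted p = 0.141), and its PAP + ATP + LiCl libraries were all above its PAP + ATP libraries.

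PSBTN had 908, 1328 and 1127 CPM in PAP + ATP + LiCl leaves, against 613, 1029.8 and 608 CPM in PAP + ATP leaves. It had 1301, 1052 and 1189 CPM in PAP + LiCl leaves, against 1212, 1372 and 868 CPM in PAP leaves. It had 639.8, 1169 and 1369.5 CPM in LiCl leaves and 1009.6, 1047 and 1239.9 CPM in ATP leaves, against 923, 731 and 1239.7 CPM in control leaves. PSBTN (AT3G21055), another small subunit of photosystem II, differed by 0.25 ± 0.17 (SE, limma adjusted p = 0.246), with overlap in every background. PSBS, the sensor of excess light, differed by -0.08 ± 0.17 (limma adjusted p = 0.735) and PSBO1 by 0.12 ± 0.13 (adjusted p = 0.503). The standard errors of the subunit genes had a median of 0.155, so changes of the size measured for LHCB5 are not shown to be absent from them.

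For PAP + ATP + LiCl against PAP + ATP and for PAP + LiCl against PAP, no member passed by limma, edgeR or DESeq2. In the first, 42 of 43 members were above 0 (median 0.34) and 9.44% of all genes passed. In 13 members (30.2%) the PAP + ATP + LiCl libraries lay above those of PAP + ATP without overlap, as they did in 16.7% of all genes. With array weights 7 members and 6784 of 17661 genes passed there. Libraries 16 and 18 of PAP + ATP were among the 5 with the smallest member share, and their part in this comparison was not tested. For PAP + LiCl against PAP, 25 of 43 were above 0 (median 0.06), and 21.6% of all genes passed. LHCB1.3 and LHCB5 lay above without overlap, as 16.7% of all genes did, and LHCA5 below, as 21.7% of all genes did. No member reached an unadjusted p under 0.05 in either, beside 4124 of 17661 genes in the first and 6068 of 17603 in the second. The interaction of PAP with LiCl called no member and 0% of all genes, and that between ATP and LiCl among the PAP groups no member and 0.0285% of all genes, so the LiCl differences of the backgrounds were not shown to differ. No member reached an unadjusted p under 0.05 in these interactions, beside 318 of 17505 and 1518 of 17541 genes.

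Antenna and subunit transcripts were set against each other within each library, where scaling has no part. The ratio of reads in the 20 antenna genes to reads in the 23 subunit genes averaged 1.86 ± 0.03 (SD, n = 3) in PAP + ATP + LiCl leaves, 1.86 ± 0.10 in PAP + LiCl leaves, 1.84 ± 0.03 in LiCl leaves, 1.64 ± 0.11 in PAP + ATP leaves, 1.59 ± 0.14 in ATP leaves, 1.52 ± 0.20 in PAP leaves and 1.47 ± 0.22 in control leaves. The 9 LiCl-fed libraries ranged from 1.75 to 1.94 (median 1.87) and the 12 LiCl-free libraries from 1.29 to 1.75 (median 1.58), and 8 of the 9 lay above all 12. Library 10, low in all members, had a ratio of 1.81, and control library 3, with the highest member share among the controls, 1.72. Antenna genes took 5.96% to 10.2% of reads with LiCl (median 9.42%) and 4.56% to 9.35% without (median 7.15%). Subunit genes took 3.29% to 5.41% with LiCl (median 5.05%) and 3.53% to 5.44% without (median 4.68%). Set against its own photosystem, per kilobase of exon, each antenna class overlapped between LiCl-fed and LiCl-free libraries. The LHCA genes were 73.75% to 77.2% of the photosystem I genes with LiCl and 62.5% to 78.9% without. The LHCB genes were 187.7% to 224.2% of the photosystem II genes with LiCl and 134.1% to 203.1% without. As a sum over genes chosen with earlier results known, the ratio of antenna to subunit reads was given no test.

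**Figure D5:**
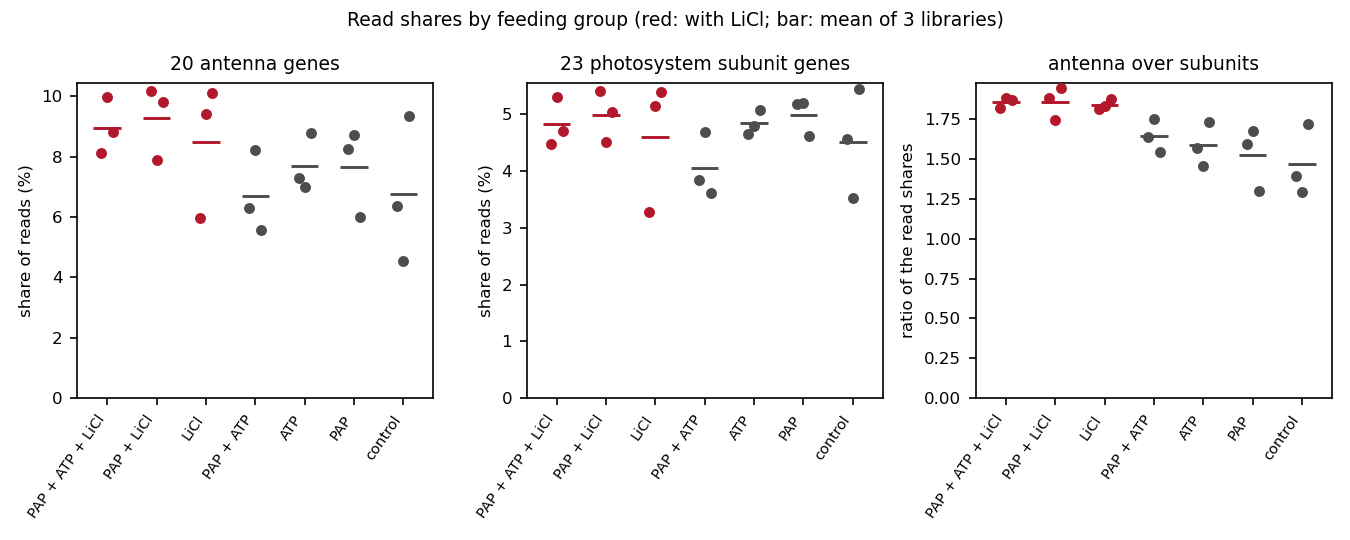
Share of reads in the 20 antenna genes, share in the 23 photosystem subunit genes and the ratio of the 2, for the 3 libraries (points) and their mean (bar) in each feeding group, red with LiCl and grey without. The ratio lies between 1.75 and 1.94 in LiCl-fed and between 1.29 and 1.75 in LiCl-free libraries, while the subunit shares lie between 3.29% and 5.41% and between 3.53% and 5.44%.

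Some parts of the antenna's makeup, per kilobase of exon, also differed between LiCl-fed and LiCl-free libraries, and others overlapped. This is a description with no test, because it was chosen after the values were seen. The 5 LHCB1 genes made up 46.6% to 49.9% of the antenna sum in 9 LiCl-fed libraries and 41.5% to 45.7% in 12 LiCl-free libraries, with no overlap. LHCB2.2 was 104.7% to 130.3% of LHCB2.1 with LiCl and 53.6% to 100.3% without, again with no overlap, though reads shared by these genes make the split uncertain. LHCA5 was 0.738% to 0.840% of the LHCA sum with LiCl and 0.860% to 1.48% without. Of 27 shares of a gene in its family, those of LHCB2.2 and LHCA5 were the 2 without overlap. The other shares overlapped. PSAE1 was 72.8% to 78.1% of the PSAE sum with LiCl and 73.2% to 76.8% without, and PSBO1 77.3% to 85.2% and 74.6% to 81.1% of PSBO. PSAD1 was 69.5% to 76.1% of PSAD with LiCl and 71.6% to 79.2% without. In PAP + ATP + LiCl leaves PSAD1 was 69.51%, 70.42% and 70.88%, below all 12 LiCl-free libraries, whereas LiCl and PAP + LiCl leaves overlapped with them.

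ATP and PAP gave no called member. The mean ATP difference over 3 backgrounds had a median of -0.06 over the members, 0.0028 with median-of-ratios scaling, and called 0 of 43, against 15.1% of all genes. No member but 5484 of 17483 genes reached an unadjusted p under 0.05. LHCB4.2 had the lowest adjusted p, with a difference of 0.33 ± 0.20 (SE, limma adjusted p = 0.263). For PAP + ATP against PAP, 3 of 43 members were above 0 (median -0.29) and 6.86% of all genes passed. In 10 members (23.3%) the PAP + ATP libraries lay lower without overlap, as in 12.3% of all genes. The part of the low PAP + ATP libraries 16 and 18 in this was not tested. At an unadjusted p under 0.05 there were 4518 of 17673 genes and 3 members, PSBTN (-0.64 ± 0.30, limma adjusted p = 0.187), LHCA5 (-0.38 ± 0.18, adjusted p = 0.191) and PSBS (-0.62 ± 0.29, adjusted p = 0.193). For PAP + ATP + LiCl against PAP + LiCl the median was -0.04, 0 of 43 members and 0.113% of all genes passed, and no member reached an unadjusted p under 0.05, beside 1268 of 17638 genes.

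The mean PAP difference over 3 backgrounds had a median of 0.03 over the members, -0.04 without library 2 and -0.05 without library 10, and 0 of 43 members and 0% of all genes passed by limma. At an unadjusted p under 0.05 there were 0 members and 321 of 17466 genes. For PAP + LiCl against LiCl all 43 members were above 0 (median 0.17) and 0% of all genes passed; without library 10 only 3 of 43 were above 0 and the median was -0.10. For PAP + ATP against ATP, 0 of 43 were above 0 (median -0.27) and 0% of all genes passed. In 9 members (20.9%) the PAP + ATP libraries lay lower without overlap, as in 5.75% of all genes. The member share was 10.14% in library 16, 9.196% in library 18 and 12.92% in library 17 (all PAP + ATP). It was 11.8% to 13.88% in the ATP libraries. The part of the low libraries 16 and 18 in this comparison and in the interaction below was not tested. LHCB4.3, a rare antenna gene, was the member furthest from 0 there, -1.44 ± 0.65 (SE, limma adjusted p = 0.446), and the 1 member at an unadjusted p under 0.05, beside 1897 of 17710 genes. The interaction of PAP with ATP was below 0 for all 43 members (median -0.52, against 0.17 over all genes), called none of them and 0% of all genes, and had a smallest limma adjusted p of 0.405 for PSAN. Under median-of-ratios scaling these medians were -0.70 and 0.00, and without library 2 the member median was -0.29 with 3 of 43 above 0. EdgeR and DESeq2 called no member in any ATP, PAP or interaction comparison.

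Other genes of the pathway were read from lists drawn up with earlier results of these data known. Of 13 chlorophyll synthesis genes, 5 rose and 1 fell in the mean LiCl difference, with a list median of 0.36, beside 41.6% of all genes called and a median of 0.01. HEMA1, which makes glutamyl-tRNA reductase at the entry of the pathway, rose most clearly (1.2 ± 0.21 SE, limma adjusted p = 0.000253). HEMA1 had 453, 794 and 762 CPM in PAP + ATP + LiCl leaves, against 203, 378 and 196 CPM in PAP + ATP leaves. It had 675, 533 and 759.8 CPM in PAP + LiCl leaves, against 339, 458 and 246 CPM in PAP leaves. It had 453, 600.3 and 836 CPM in LiCl leaves, against 226, 202 and 372 CPM in control leaves, and the groups of all 3 pairs lay apart. HEMA1 also passed in each LiCl group against the control. CHLM, a methyltransferase of the magnesium branch, rose by 0.59 ± 0.14 (limma adjusted p = 0.00307), and CAO, which makes chlorophyll b for the antenna, by 0.67 ± 0.23 (adjusted p = 0.0288). GUN4, an activator of magnesium chelatase, fell by 1.03 on the log2 scale (SE 0.24, limma adjusted p = 0.00246). The PAP + ATP background showed no clear fall of GUN4. There it had 23.46, 29.25 and 19.97 CPM with LiCl, against 11.65, 33.45 and 33.4 CPM without.

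Of 7 chlorophyll breakdown genes, 3 (42.9%) fell and none rose, beside 41.6% of all genes called in either direction, with a list median of -0.83. NYE1, which starts the removal of magnesium from chlorophyll a, fell by 1.28 on the log2 scale (SE 0.29, limma adjusted p = 0.00169), PAO by 0.96 (SE 0.23, adjusted p = 0.00298) and PPH by 0.83 (SE 0.23, adjusted p = 0.00813). Of 12 genes for antenna regulation and insertion, 3 rose and 1 fell (33.3% called, median 0.22). CPFTSY, a receptor of the insertion pathway for antenna proteins, rose by 0.55 ± 0.13 (limma adjusted p = 0.00228), and STN8, a kinase of photosystem II proteins, by 0.77 ± 0.20 (adjusted p = 0.00555). NPQ1, the violaxanthin de-epoxidase, rose by 0.42 ± 0.17 (limma adjusted p = 0.0489). GLK2, a transcription factor for photosynthesis genes, fell by 0.99 on the log2 scale (SE 0.28, limma adjusted p = 0.00887), and GLK1 fell in ATP against control leaves by 1.53 (SE 0.42, adjusted p = 0.0373). None of 13 electron transport and ATP synthase genes (median 0.14) and none of the 6 tested light-stress relatives of the antenna (median 0.12) passed in the mean LiCl difference by limma, or reached an unadjusted p under 0.05.

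Of 11 clock genes, 3 rose and 4 fell in the mean LiCl difference (63.6%, beside 41.6% of all genes called). LUX fell by 1.21 on the log2 scale (SE 0.20, limma adjusted p = 0.000157), ELF3 by 0.83 (SE 0.20, adjusted p = 0.00352) and ELF4 by 0.85 (SE 0.21, adjusted p = 0.00418). ELF4 was barely expressed, at 0.17 to 3.43 CPM over all libraries, around the filter of 1 CPM. TOC1 rose by 0.81 ± 0.19 (limma adjusted p = 0.00297), and CCA1, named because its site was searched above, by 0.57 ± 0.21 (limma adjusted p = 0.0389). The backgrounds of CCA1 were not alike. It had 43.92, 26.79 and 33.62 CPM in LiCl leaves, against 9.382, 10.11 and 16.99 CPM in control leaves. PAP + LiCl and PAP leaves overlapped. In the PAP + ATP background CCA1 did not rise, with 25.62, 26.01 and 21.44 CPM with LiCl, against 41.77, 32.67 and 23.81 CPM without. A link of CCA1 to the members was not tested. Of 6 plastid-encoded photosystem genes 5 rose in the mean LiCl difference (median 1.78). Their summed level was 104.3 to 843.8 CPM in LiCl-fed libraries and 24.6 to 136.8 CPM in the control, PAP and PAP + ATP libraries. The ATP libraries, which are in none of the 3 differences averaged here, had 40.9 to 2919 CPM. The highest values were in the plastid-rich libraries 4 (ATP) and 20 (PAP + ATP + LiCl). Messenger RNA was selected by its poly(A) tail, which most plastid transcripts lack.

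In the mean LiCl difference 1 of 3 mesophyll, 5 of 7 phloem, 1 of 3 epidermis and 0 of 5 guard cell markers passed, beside 41.6% of all genes. The 3 mesophyll markers summed to 10270.0 to 22480.0 CPM with LiCl (median 19420.0) and 8549 to 22700.0 CPM without (median 12035), and 1 of 3, RCA, rose (0.70 ± 0.23 SE, limma adjusted p = 0.0212). Of 7 phloem markers 3 rose and 2 fell, among them SUC2, the sucrose carrier of companion cells (0.99 ± 0.14 SE, limma adjusted p = 2.91e-05), and SWEET11, a sucrose exporter, which fell by 0.67 (SE 0.22, adjusted p = 0.0232). Their sum was 740.8 to 943.1 CPM with LiCl and 389.8 to 1013 CPM without. Of 3 epidermis markers tested 1, CER6, fell by 1.67 on the log2 scale (SE 0.20, limma adjusted p = 4.12e-06). The epidermis markers summed to 177.2 to 519.5 CPM with LiCl and 405.8 to 1323 CPM without. CER6 made up most of that sum, from 660.4 of 752.1 CPM in library 1 (control) to 174.7 of 335 CPM in library 21 (PAP + ATP + LiCl). The sum is therefore no result apart from CER6, and ATML1 and FDH did not pass. The 5 guard cell markers summed to 606.9 to 3303 CPM with LiCl and 427.8 to 3977 CPM without, and none passed or reached an unadjusted p under 0.05. No gene of the table had a value of 0, and the part of these markers in the antenna differences was not tested.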

How the data were processed

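PolyA RNA libraries, made with a TruSeq V2 kit, which does not mark strand, per the labels' protocols, were aligned with Subread and counted with featureCounts on TAIR10, per the submitters' processing notes; versions are not given in the sources used here. The authors deposited CPM (counts of assigned reads scaled to a common library total) for 21156 genes in 21 libraries. All values were whole multiples of 1 read (100% within 1e-06), so reads were recovered for edgeR and DESeq2 as alternatives. Genes with at least 1 CPM in 3 libraries entered limma 3.58.1 (R 4.3.3, trend) on log2(CPM + 0.5), with 7 group means and 14 residual degrees of freedom. Fold changes are on that scale. P-values were adjusted over all genes by Benjamini-Hochberg, with a threshold of 0.05. EdgeR 4.0.16 (quasi-likelihood) and DESeq2 1.42.0 ran on 17440 genes with values in every group. The fits were run on simulated data in which genes varied independently. Those data held no shifts shared by many genes of a library, so such shifts were not covered. Alternatives changed the pseudocount, filter, scaling, fit and weights, and left out each library. Values in every library are given for members that passed, for the 2 members of each class with the smallest p among 7 groups, and for the largest LiCl difference of each class; for other lists, up to 4 genes with the smallest p are named. Members and lists were chosen with earlier results of these data known. Sequences are from RefSeq TAIR10.1.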

Additional observations from a re-analysis of the deposited data

How the results depend on the processing

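No paired analysis was possible because the columns carry no replicate numbers of the labels. Among 5 named differences, none changed direction under 32 alternatives. The adjusted p ranged from 0.00238 to 0.0323 for LHCB1.1, 0.0178 to 0.104 for LHCB1.2, 0.00747 to 0.135 for LHCB1.4, 0.0111 to 0.121 for LHCB5 and 0.021 to 0.161 for LHCA5. Against 5 members in the mean LiCl difference, 2 passed with no filter on low values, 2 with median-of-ratios scaling, 3 with TMM, 1 with only the compared groups fitted, 9 with array weights, 2 with edgeR and 1 without libraries 4 and 20, a choice made after seeing the data; leaving out each library in turn gave 1 to 7. Against 0 members, PAP + ATP + LiCl against control gave 1 with median-of-ratios, TMM, DESeq2 or a filter at a mean of 5 CPM, 4 with array weights and 0 to 5 with libraries left out. PAP + LiCl against control gave 1 under each of those 5 settings, array weights included, and 0 to 3 with libraries left out. LiCl against control gave 1 with array weights and 0 to 3 with libraries left out. PAP + ATP + LiCl against PAP + ATP gave 7 with array weights, and the test among 7 groups 19 with array weights and 0 to 1 with libraries left out. Counts over all genes also moved. Over all alternatives 1725 to 5031 genes passed for PAP + ATP + LiCl against control (3476 as reported), 1007 to 3615 for PAP + LiCl (2762), 1138 to 4225 for LiCl (3102), 0 to 1260 for PAP + ATP (383), 13 to 2988 for ATP (1283) and 5385 to 8175 for the mean LiCl difference (7255). The test among 7 groups gave 4237 to 15190 genes (6215), PAP + ATP against PAP 6 to 2536 (1212), PAP + ATP against ATP 0 to 3364 (0), and PAP + ATP + LiCl against PAP + ATP 631 to 6784 (1667). The causes were not tested. With 3 libraries a group, the median standard error of a single comparison on the log2 scale was 0.29 for the members and 0.31 for all genes.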
